A study of Homo sapiens with 24 samples.

Results

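The genes described here are 54 genes of the mitotic machinery: kinases and cyclins of mitotic entry, spindle checkpoint and anaphase genes, kinetochore and chromosomal passenger genes, condensin subunits and other genes of the mitotic chromosome, genes of spindle assembly and cytokinesis, and the transcription factors FOXM1 and MYBL2. They were taken by symbol from a list of names, and each of the 54 was found in all 4 deposited tables, which hold 58174 genes each. Total RNA depleted of ribosomal RNA had been sequenced from the cell lines A549 (lung adenocarcinoma), ES2 (ovarian clear cell adenocarcinoma), MV3 (amelanotic melanoma) and PANC1 (pancreatic ductal adenocarcinoma). The cells carried either control siRNAs (siC), made after a worm microRNA, or a pool of siRNAs against IGF2BP1 (siI1), with 3 libraries in each of the 8 groups, 24 in all. RNA was taken 72 h after transfection from A549, ES2 and MV3 and 96 h after it from PANC1, so that harvest time and line cannot be told apart in PANC1. Each line is a single established tumour line grown in serum, and the study's methods call the 3 libraries of a group biological replicates.

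Cells that enter mitosis switch on CDK1 through its cyclins, with the help of the Aurora and Polo-like kinases and of CDC25 phosphatases. Condensin and topoisomerase II then fold the chromosomes, the kinetochore ties them to the spindle, and the spindle checkpoint holds back the anaphase-promoting complex until each chromosome is attached. Most of the genes involved are transcribed together late in the cell cycle, when the MuvB complex with MYBL2 and FOXM1 acts at promoter elements called CHR (cell cycle genes homology region), often beside CCAAT boxes bound by NF-Y. IGF2BP1 is an RNA-binding protein of embryos and tumours that is known to protect some bound mRNAs from decay, and the study depleted it to find the transcripts that depend on it.

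The targeted gene was lower in each siI1 library than in any siC library of its line. The mean IGF2BP1 level in siI1 was 24.9% of that in siC in PANC1, 31.4% in MV3, 31.7% in ES2 and 39.4% in A549 (n = 3 libraries a group). FPKM are reads per kilobase of gene length relative to library size, scaled by the authors within a line. The PANC1 libraries held between 6532175 and 8472851 gene reads, the MV3 libraries between 15572492 and 20082702, the ES2 libraries between 6421764 and 8419467 and the A549 libraries between 3105215 and 4553326. One gene, RN7SL2, an RNA of the signal recognition particle, took 8.74% to 12.8% of the reads of PANC1 siC libraries and 17.7% to 20.9% of those of PANC1 siI1 libraries, against 3.44% to 8.93% in the libraries of the other lines. Its part in the PANC1 results was not tested, but values from a scaling without it and other small non-coding RNAs are given beside them. Keratins marked A549, ES2 and PANC1 as epithelial, while several defining tissue genes were at 0: NKX2-1 and SFTPB in A549, and SOX10, TYR, DCT and S100B in MV3, a line labelled melanoma.

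Promoter sequence shows what most of these genes share beyond their function. In RefSeq (GRCh38.p14), 44 of the 54 genes had a promoter entry of 300 bases, from 250 before to 50 after a transcription start. The genes without one were AURKA, BUB3, TTK, UBE2C, CENPM, KNTC1, BIRC5, TPX2, RACGAP1 and FOXM1. A CHR, searched as TTTGAA or TTCGAA on both strands, was present in 33 of the 44 genes (75%), against 17.5% of 15843 protein-coding genes and 19.5% of all 27305 genes with an entry. A CCAAT box, searched as CCAAT on both strands, was also present in 33 of the 44 (75%), against 42.1% of protein-coding genes and 39.7% of all. Both elements stood in 1 promoter in 24 of the 44 (54.5%), against 7.28% of protein-coding genes and 7.85% of all. An E2F motif, searched as TTTCCCGC or TTTGGCGC on both strands, was present in 2 of the 44, CDCA5 and NUSAP1 (4.55%), against 3.70% of protein-coding genes and 2.75% of all. Only these 2 spellings were searched, so other forms of an E2F site were not counted. With motif models over a wider window, the study reported E2F motifs for most of its conserved candidate genes. AURKA, CDK1, PLK1 and MKI67 are among those candidates. The study called its candidates lower in every line it used, by its own test, and found them positively correlated with IGF2BP1 in most tumour cohorts. Some genes have several entries. Counted by entry, 37 of 59 (62.7%) held a CHR, 39 (66.1%) a CCAAT box and 27 (45.8%) both, against 13.7%, 34.7% and 5.48% of 22199 entries of protein-coding genes. These matches are descriptions of letters, not of bound sites.

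The following stretches lie before the transcription start, on the strand of the gene and 5′ to 3′, and show how CHR and CCAAT elements stand together in genes of most roles: a cyclin, a phosphatase, an activator of the anaphase-promoting complex, separase, a kinetochore subunit, a proliferation antigen and 3 spindle or cytokinesis genes. Capitals mark the elements, which read TTTGAA or in reverse TTCAAA for a CHR (TTCGAA reads the same both ways) and CCAAT or in reverse ATTGG for a CCAAT box. In MKI67 the last CHR and a CCAAT box share letters.
CCNB2, chr15:59105018-59105125, plus strand: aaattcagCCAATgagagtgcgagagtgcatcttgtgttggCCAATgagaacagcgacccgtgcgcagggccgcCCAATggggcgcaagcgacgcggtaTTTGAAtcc
CDC25B, chr20:3796229-3796285, plus strand: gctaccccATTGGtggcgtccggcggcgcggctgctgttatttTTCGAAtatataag
CDC20, chr1:43358873-43358938, plus strand: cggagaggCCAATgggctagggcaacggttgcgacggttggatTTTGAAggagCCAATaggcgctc
ESPL1, chr12:53268243-53268281, plus strand: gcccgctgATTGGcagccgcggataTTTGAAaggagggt
ZWINT, chr10:56361277-56361383, minus strand: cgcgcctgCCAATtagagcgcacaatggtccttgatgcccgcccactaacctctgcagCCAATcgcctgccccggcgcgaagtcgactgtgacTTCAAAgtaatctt
MKI67, chr10:128126435-128126529, minus strand: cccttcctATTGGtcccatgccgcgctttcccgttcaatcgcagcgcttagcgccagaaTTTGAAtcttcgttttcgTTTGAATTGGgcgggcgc
ECT2, chr3:172750603-172750680, plus strand: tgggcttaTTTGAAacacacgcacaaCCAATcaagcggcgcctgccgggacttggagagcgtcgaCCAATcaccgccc
DLGAP5, chr14:55191660-55191731, minus strand: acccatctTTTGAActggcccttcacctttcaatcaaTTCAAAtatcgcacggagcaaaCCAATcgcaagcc
ASPM, chr1:197146722-197146811, minus strand: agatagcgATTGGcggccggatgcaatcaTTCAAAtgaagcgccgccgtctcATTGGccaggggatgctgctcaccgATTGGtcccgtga

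Other genes held paired CCAAT boxes without a CHR in the stretch that could be shown. CCNB1 and SPC24 are printed as a comparison, since their promoter entries held no CHR at all while both genes fell in several lines.
CCNB1, chr5:69167055-69167107, plus strand: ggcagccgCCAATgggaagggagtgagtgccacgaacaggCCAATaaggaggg
SPC24, chr19:11155844-11155899, minus strand: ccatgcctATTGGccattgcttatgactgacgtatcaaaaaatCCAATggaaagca

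Genes with and without these letters both had negative medians in each line. Among the 44 genes, the median log2 fold change of the 24 with both elements was -0.67 in PANC1, -0.46 in MV3, -0.29 in ES2 and -0.34 in A549, and that of the other 20 was -0.60, -0.48, -0.22 and -0.16. The 33 genes with a CHR had medians of -0.70, -0.47, -0.21 and -0.26 in that order, and the 11 without one had -0.56, -0.46, -0.51 and -0.24. The order of the 2 sets thus changed from line to line. Fold changes here and throughout are siI1 against siC on the log2(FPKM + 0.5) scale.

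Nearly all of the mitotic genes were called lower in MV3 and PANC1 and a part of them in A549 and ES2, with the largest median fall in PANC1. All 54 averaged 0.5 FPKM or more in each line and so were tested. In A549, 18 of 54 were lower at a limma adjusted p under 0.05, against 7.83% of all genes tested in that line. In ES2, 26 of 54 were lower, against 13% of all genes. In MV3, 52 of 54 were lower, against 19.5%, and in PANC1, 51 of 54, against 13.4%. The members' share was above that background in each line. Among genes that averaged 5 FPKM or more, a level nearer to that of the members, the share called lower was 20.8% in PANC1, 33.4% in MV3, 22.6% in ES2 and 13.5% in A549. The authors' scaling makes all changes relative to the other genes of a line, and in bulk RNA a smaller share of cells in mitosis and less of each transcript per mitotic cell cannot be told apart. For AURKA in ES2, the study separately reported a shorter mRNA half-life under actinomycin D and less protein after IGF2BP1 depletion.

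No member was called higher in any line by limma on the deposited FPKM, whereas 5.93%, 10.5%, 16.3% and 11.3% of all genes tested were higher in A549, ES2, MV3 and PANC1. At an unadjusted p under 0.05, 1 member was higher in A549, ANLN, and 1 in ES2, DLGAP5. The voom method on reads recovered from the FPKM values called 1 member higher in A549, 2 in ES2 and 0 in MV3 and PANC1. It called 26 members lower in A549, 35 in ES2 and 53 each in MV3 and PANC1. Limma on FPKM also called 1 member higher in A549 with a filter of 2 FPKM, with libraries rescaled to the same sum of reads and with that rescaling without small non-coding RNAs, and 0 in the other lines. Of the 216 combinations of member and line, 147 were called lower and 202 had a negative fold change. By line, 44, 50, 54 and 54 members had a negative fold change in A549, ES2, MV3 and PANC1. The 3 siI1 libraries all lay below the 3 siC libraries for 30 members in A549 and 40 in ES2, and for 53 each in MV3 and PANC1, against 18.5%, 22.6%, 25.9% and 23.8% of all genes tested.

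The size of the fall was moderate. The median log2 fold change of the 54 genes was -0.25, -0.33, -0.48 and -0.62 in A549, ES2, MV3 and PANC1, against -0.013, -0.019, 0.0098 and -0.036 over all genes tested. The median siI1 level was 83.8%, 79.5%, 71.4% and 63.9% of the siC level in the same order. The median standard error of a member's log2 fold change was 0.083 in PANC1, 0.044 in MV3, 0.070 in ES2 and 0.088 in A549. A member had as few as 7 reads in 1 library of A549, against at least 92 in MV3. The part of read depth and standard error in the counts of members called lower was not tested. Rescaling the PANC1 libraries to the same sum of reads outside RN7SL2 and 5 other small non-coding RNAs, a choice made after the data were seen, gave a median of -0.63 in place of -0.62. Rescaling to the same sum of FPKM gave -1.36, but then the median of all genes in PANC1 also moved to -0.68, and the members differed from it by -0.68, against -0.59 with the deposited scaling.

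**Figure D1:**
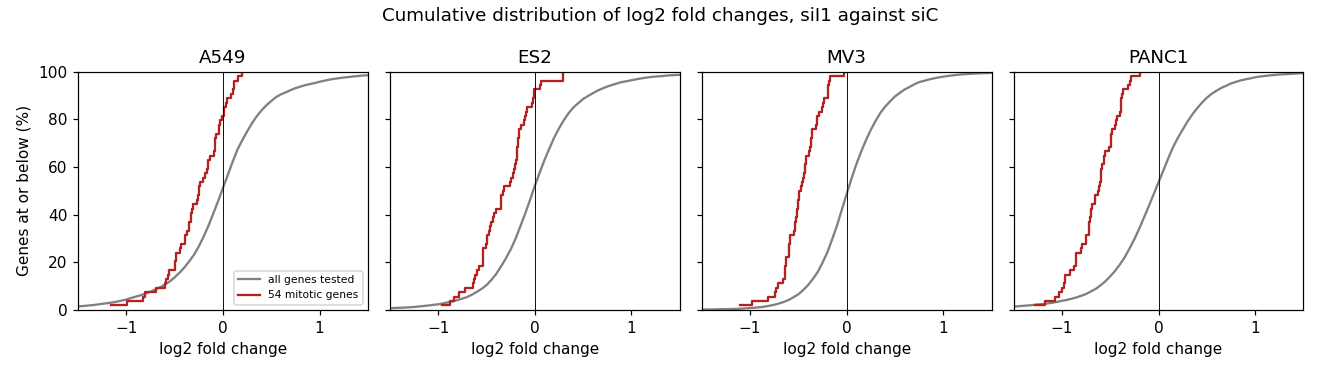
Cumulative share of genes (y axis, %) at or below each log2 fold change of siI1 against siC (x axis), in 1 panel per cell line, for all genes tested (grey) and for the 54 mitotic genes (red). The red curve lies to the left of the grey one over most of its range, with medians of -0.62 in PANC1, -0.48 in MV3, -0.33 in ES2 and -0.25 in A549. At the far left the curves cross and the grey one lies above. The lowest member stood at -1.15 in A549 and -0.96 in ES2. Of all genes, 2.80% were at or below -1.2 in A549 and 2.34% at or below -1 in ES2.

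12 members were lower in all 4 lines, against 2.51% of the 12816 genes tested in each: AURKA, CDK1, CDCA3, PTTG1, ESPL1, SPC24, ZWINT, INCENP, NCAPH, TPX2, PRC1 and FOXM1. They include at least 1 gene of each role. A further 17 members were lower in 3 lines, 23 in 2 lines, and NCAPD2 and DLGAP5 in 1 line, PANC1. The number lower in all 4 lines was limited by A549. It dropped to 7 without A549 siC replicate 1 or without A549 siC replicate 3, and to 6 without A549 siI1 replicate 1 or without A549 siI1 replicate 2. The A549 count itself dropped from 18 to 8, 9 or 10 when any 1 A549 library other than siI1 replicate 3 was left out, and to 13 without that one. With limma voom on recovered reads, 21 members were lower in all 4 lines.

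**Figure D2:**
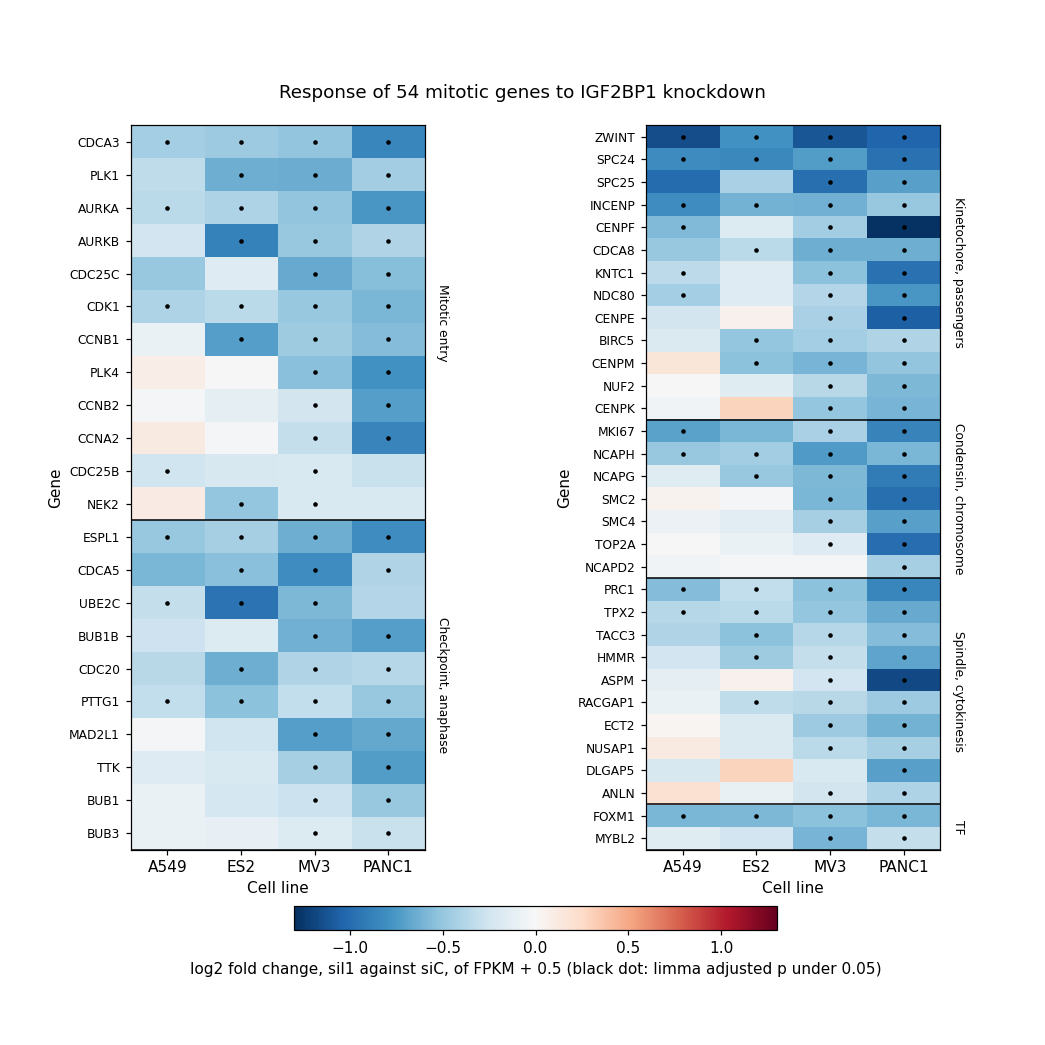
Log2 fold change of each of the 54 genes (rows, grouped by role, TF standing for the transcription factors) in the 4 cell lines (columns), siI1 against siC, in blue for lower and red for higher, with a black dot where the limma adjusted p was under 0.05. No red cell carries a dot, the MV3 and PANC1 columns carry 52 and 51 dots, and the A549 and ES2 columns carry 18 and 26.

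Genes of mitotic entry were called lower in MV3 without exception, and in part in the other lines. Of 12 genes, 4, 7, 12 and 10 were lower in A549, ES2, MV3 and PANC1, with median log2 fold changes of -0.26, -0.38, -0.49 and -0.58. Across all genes tested, 7.83%, 13%, 19.5% and 13.4% were lower in the same order. AURKA (ENSG00000087586; hg38 chromosome 20, 56369389 to 56392337), the kinase of centrosome maturation and spindle assembly, was called in all 4 lines. Coordinates are those of GENCODE release 44. In A549 AURKA read 37.6, 39.5 and 41.2 FPKM in siC and 30.6, 30.7 and 31.3 in siI1. In ES2 AURKA read 53.8, 50.96 and 60.9 FPKM in siC and 41.3, 40.8 and 42.7 in siI1. The siC and siI1 libraries did not overlap in either line. In MV3 AURKA read 90.6, 91.6 and 86.9 FPKM in siC and 61.1, 64.03 and 62.4 in siI1. In PANC1 AURKA read 59.6, 62.96 and 56 FPKM in siC and 34.7, 36.8 and 33.8 in siI1. The groups stood apart here too. The log2 fold change of AURKA was -0.75 ± 0.063 in PANC1, -0.52 ± 0.033 in MV3, -0.40 ± 0.071 in ES2 and -0.35 ± 0.051 in A549 (SE), with adjusted p of 0.00127, 0.000202, 0.00963 and 0.00895.

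CDK1 (chromosome 10, 60778331 to 60794852), the kinase that drives mitosis, had log2 fold changes of -0.60 ± 0.058 in PANC1, -0.49 ± 0.032 in MV3, -0.35 ± 0.068 in ES2 and -0.40 ± 0.093 in A549 (SE), and was called in each, at adjusted p of 0.00175, 0.000218, 0.0138 and 0.0393. In MV3, for example, CDK1 averaged 81 ± 0.960 FPKM in siC and 57.4 ± 1.91 in siI1 (SD of 3 libraries each). CDCA3 (chromosome 12, 6844793 to 6851292), an adaptor known to help degrade the CDK1 inhibitor WEE1, had the lowest mean log2 fold change of the group, at -0.85 in PANC1, -0.52 in MV3, -0.47 in ES2 and -0.44 in A549, and was also called in each line. PLK1 (chromosome 16, 23677656 to 23690367), a kinase acting from entry to cytokinesis, read 19.4 ± 1.19 FPKM in siC and 12.3 ± 0.230 in siI1 in ES2 and 31.6 ± 1.28 FPKM in siC and 20.1 ± 0.904 in siI1 in MV3 (SD of 3 libraries each). Its log2 fold changes of -0.64 in ES2, -0.64 in MV3 and -0.45 in PANC1 passed the threshold, and that of -0.33 ± 0.10 (SE) in A549 did not (adjusted p 0.0827), although the A549 groups did not overlap. The study's own test counted PLK1 as lower in each of its lines, A549 included.

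The cyclins did not move alike. CCNA2 (chromosome 4, 121816444 to 121823883), cyclin A2, read 29.8, 31.1 and 26.8 FPKM in siC and 30.99, 31.8 and 32.3 in siI1 in A549 and 39.8, 37.8 and 40.6 FPKM in siC and 32.8, 42.3 and 41.4 in siI1 in ES2. The groups overlapped in both lines. In PANC1 it read 28.5, 32.1 and 28.4 FPKM in siC and 17.04, 15.8 and 15.5 in siI1, where every siI1 library lay below every siC library. For CCNA2 the log2 fold change was -0.86 ± 0.07 in PANC1, -0.31 ± 0.051 in MV3, -0.029 ± 0.10 in ES2 and 0.12 ± 0.066 in A549 (SE), with adjusted p of 0.00124, 0.00472, 0.875 and 0.313. CCNB1, cyclin B1, which like the next 2 genes is named after its values were seen, changed by -0.56 in PANC1, -0.46 in MV3, -0.72 in ES2 and -0.084 in A549, and only the A549 value was not called (adjusted p 0.492). CCNB2, cyclin B2, changed by -0.72 in PANC1, -0.24 in MV3, -0.11 in ES2 and -0.029 in A549 and was called in MV3 and PANC1. PLK4, the kinase of centriole duplication, was at 0.086 in A549 and -0.01 in ES2, neither called, and fell by 0.55 in MV3 and by 0.79 in PANC1 on the log2 scale.

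NEK2 (chromosome 1, 211658657 to 211675630), a kinase of centrosome separation, had the smallest mean fall of the group. For NEK2 the log2 fold change was -0.20 ± 0.091 in PANC1, -0.20 ± 0.039 in MV3, -0.51 ± 0.10 in ES2 and 0.10 ± 0.14 in A549 (SE), called in ES2 and MV3 only (adjusted p 0.171, 0.00993, 0.0128 and 0.692, in that order of lines). In A549 it read 11.5, 13.2 and 12.2 FPKM in siC and 10.7, 14 and 15.3 in siI1, with overlapping groups. The 3 remaining genes of mitotic entry were AURKB, CDC25B and CDC25C. AURKB, the kinase of the chromosomal passenger complex, was called in ES2, MV3 and PANC1, with its largest change in ES2 (-0.88 ± 0.12, SE). The phosphatases were called in 2 lines each, CDC25B in A549 and MV3 and CDC25C in MV3 and PANC1.

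All 10 genes of the spindle checkpoint and of anaphase had negative fold changes in each line. Of these, 3, 5, 10 and 9 were called lower in A549, ES2, MV3 and PANC1, and the medians were -0.29, -0.34, -0.51 and -0.49. The shares lower across all genes tested were 7.83%, 13%, 19.5% and 13.4%. ESPL1 (chromosome 12, 53268299 to 53293638), separase, the protease that cuts cohesin at anaphase, was called in all 4 lines. In A549 ESPL1 read 7.23, 6.59 and 7.62 FPKM in siC and 4.54, 5.32 and 4.92 in siI1. In PANC1 ESPL1 read 8.83, 8.78 and 9.48 FPKM in siC and 4.79, 5.42 and 4.68 in siI1. Neither line showed any overlap. For ESPL1 the log2 fold change was -0.80 ± 0.079 in PANC1, -0.63 ± 0.071 in MV3, -0.43 ± 0.079 in ES2 and -0.49 ± 0.10 in A549 (SE), with adjusted p of 0.00183, 0.00113, 0.0112 and 0.0236. PTTG1, securin, the inhibitor of separase, was called in all 4 lines as well, at -0.49 in PANC1, -0.32 in MV3, -0.53 in ES2 and -0.32 in A549.

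CDCA5 (chromosome 11, 65066300 to 65084164), sororin, which keeps cohesin on replicated chromosomes, had the other of the lowest means in the group. It read 18.5, 16.5 and 14.9 FPKM in siC and 8.94, 9.81 and 8.87 in siI1 in MV3, where its log2 fold change was -0.81 ± 0.083 (SE, adjusted p 0.000814). In A549 its 3 siI1 libraries lay at 6.81, 8.52 and 11.1 FPKM, all below siC, but that spread left the change of -0.60 ± 0.17 (SE) short of the threshold (adjusted p 0.072). BUB3 (chromosome 10, 123154402 to 123170467), which docks checkpoint proteins at kinetochores, changed least, by -0.29 in PANC1, -0.18 in MV3, -0.10 in ES2 and -0.091 in A549, and was called in MV3 and PANC1. TTK, BUB1, BUB1B and MAD2L1, the signalling core of the checkpoint, were each called in the same 2 lines and in no other. CDC20 and UBE2C, which activate and serve the anaphase-promoting complex, instead had their largest falls in ES2, with log2 fold changes of -0.63 ± 0.053 and -0.96 ± 0.15 (SE). In PANC1, UBE2C read 36.9, 51.98 and 35.6 FPKM in siC and 32.2, 26.5 and 35.9 in siI1, with overlapping groups and an adjusted p of 0.161. These 6 genes were named after their values were seen.

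Kinetochore and chromosomal passenger genes held the 3 lowest mean fold changes of all 54 genes, those of ZWINT, SPC24 and SPC25. All 13 were lower in MV3 and in PANC1, and 6 in each of A549 and ES2, with medians of -0.44, -0.35, -0.53 and -0.70 in A549, ES2, MV3 and PANC1. Across all genes tested, 7.83%, 13%, 19.5% and 13.4% were lower in that order of lines. ZWINT (chromosome 10, 56357227 to 56361273), which links the outer kinetochore to the dynein-recruiting RZZ complex, came first. In A549 ZWINT read 25.1, 24.5 and 28.7 FPKM in siC and 10.1, 12.6 and 11.7 in siI1. In ES2 ZWINT read 45.4, 48.1 and 42.1 FPKM in siC and 26.9, 26.8 and 24.5 in siI1. The mean siI1 level was 43.9% of siC in A549 and 57.6% in ES2. In MV3 ZWINT read 25.6, 26.1 and 26.8 FPKM in siC and 12.2, 11.9 and 11.5 in siI1. In PANC1 ZWINT read 30.6, 35.1 and 32.9 FPKM in siC and 16.5, 13.4 and 17.9 in siI1. No siI1 library reached the lowest siC library in any line. For ZWINT the log2 fold change was -1.03 ± 0.12 in PANC1, -1.11 ± 0.036 in MV3, -0.78 ± 0.066 in ES2 and -1.15 ± 0.10 in A549 (SE), with adjusted p of 0.00247, 5.25e-05, 0.000774 and 0.00189.

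SPC24 (chromosome 19, 11131520 to 11155807), one of the 4 subunits of the NDC80 complex that grips microtubules, came next. In A549 SPC24 read 8.20, 8.14 and 8.76 FPKM in siC and 4.16, 4.72 and 4.67 in siI1. In ES2 SPC24 read 31.5, 34.3 and 29.2 FPKM in siC and 17.7, 17.7 and 17.01 in siI1. The groups were far apart in both. In MV3 SPC24 read 28.01, 26.7 and 27.2 FPKM in siC and 16.6, 16.2 and 15.9 in siI1. In PANC1 SPC24 read 17.96, 18.1 and 15.8 FPKM in siC and 8.19, 8.90 and 8.54 in siI1. The gap was as clear in these lines. For SPC24 the log2 fold change was -0.97 ± 0.074 in PANC1, -0.73 ± 0.034 in MV3, -0.84 ± 0.066 in ES2 and -0.82 ± 0.087 in A549 (SE), with adjusted p of 0.00105, 0.000109, 0.00064 and 0.00324. A difference between lines was not called for it (adjusted p 0.0678).

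The other 3 subunits of that complex fell less or less evenly, and are named after their values were seen. NDC80 changed by -0.75 in PANC1, -0.38 in MV3, -0.17 in ES2 and -0.44 in A549 and was called in all but ES2 (adjusted p 0.0817). NUF2 read 11.1, 14.1 and 12.1 FPKM in siC and 14.1, 12.2 and 11.3 in siI1 in A549, with overlapping groups, and was called in MV3 (-0.36) and PANC1 (-0.58). SPC25, the partner of SPC24, was the least expressed of the 54 genes in each line by siC mean and had 7 reads in 1 A549 library. Its log2 fold change in A549 was -0.997 ± 0.27 (SE), not called (adjusted p 0.0583), and in MV3 -0.98 ± 0.094 (SE), called (adjusted p 0.000677). Within the complex, the log2 ratio of SPC24 to NDC80 ran from 0.048 to 0.39 in siC and -0.56 to -0.36 in siI1 in ES2. It also fell without overlap in A549, from a mean of 0.35 to -0.034, and in MV3, from -0.25 to -0.60. In PANC1 the ratios overlapped, -0.11 to 0.15 in siC and -0.27 to -0.06 in siI1. The ratio of SPC25 to NUF2 fell without overlap in A549 and MV3 and overlapped in ES2 and PANC1.

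Of the remaining kinetochore genes, CENPK (chromosome 5, 65517766 to 65563168), a subunit of the inner kinetochore network, had the highest mean. In ES2 it read 12.5, 8.94 and 9.97 FPKM in siC and 12.1, 13.8 and 12.5 in siI1, with overlapping groups and a log2 fold change of 0.29 ± 0.12 (SE, adjusted p 0.151). In MV3 and PANC1 it fell by 0.50 and 0.60 on the log2 scale (adjusted p 0.000751 and 0.0143). CENPF and CENPE, large proteins of the outer kinetochore, had much larger falls in PANC1 than elsewhere and are named after their values were seen. CENPF read 42.05, 37.1 and 49.5 FPKM in siC and 16.2, 18.1 and 17.5 in siI1 in PANC1, a log2 fold change of -1.28 ± 0.11 (SE), and 35.02, 35.2 and 35.6 FPKM in siC and 29.9, 33.98 and 29.4 in siI1 in ES2, a change of -0.18 ± 0.063 that was not called. CENPE changed by -1.07 in PANC1, -0.42 in MV3, 0.059 in ES2 and -0.24 in A549, called in MV3 and PANC1. Of the passenger genes, INCENP, the scaffold of AURKB, was called in all 4 lines at -0.49 in PANC1, -0.63 in MV3, -0.62 in ES2 and -0.80 in A549. BIRC5, survivin, and CDCA8, borealin, were called in all but A549, and KNTC1 and CENPM in 3 lines each. The log2 ratio of INCENP to BIRC5 fell without overlap in every line but ES2, where it overlapped.

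Condensin and mitotic chromosome genes had the widest gap between lines in their medians among the roles. Of 7 genes, 2, 2, 6 and 7 were lower in A549, ES2, MV3 and PANC1, with medians of -0.077, -0.14, -0.43 and -0.87. The shares lower across all genes tested were 7.83%, 13%, 19.5% and 13.4%. Among genes averaging 5 FPKM or more, 13.5% were lower in A549 and 22.6% in ES2. The counts of 2 of 7 in those 2 lines are given as values only. TOP2A (chromosome 17, 40388525 to 40417896), topoisomerase II alpha, had the smallest p for a difference between lines of all 54 genes. In A549 TOP2A read 144, 158 and 142 FPKM in siC and 136, 151 and 159.8 in siI1. In ES2 TOP2A read 85.1, 78.7 and 77.1 FPKM in siC and 76.2, 76.3 and 74.8 in siI1. The groups overlapped in A549 and, narrowly, did not in ES2. In MV3 TOP2A read 67.9, 67.9 and 69.1 FPKM in siC and 62.4, 57.2 and 62.1 in siI1. In PANC1 TOP2A read 77.9, 81.1 and 83.4 FPKM in siC and 39.8, 40.1 and 40.96 in siI1. Its level was thus nearly the same in both groups of A549 and 49.9% of siC in PANC1. For TOP2A the log2 fold change was -0.99 ± 0.048 in PANC1, -0.17 ± 0.04 in MV3, -0.082 ± 0.048 in ES2 and 0.0067 ± 0.077 in A549 (SE), with adjusted p of 0.000463, 0.0177, 0.274 and 0.972.

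The condensin subunits split in A549 and ES2. NCAPH (chromosome 2, 96335766 to 96377091), the kleisin subunit that closes the condensin ring, was called in all 4 lines, with a log2 fold change of -0.59 ± 0.077 in PANC1, -0.74 ± 0.056 in MV3, -0.45 ± 0.05 in ES2 and -0.49 ± 0.088 in A549 (SE) and adjusted p of 0.0037, 0.000312, 0.00198 and 0.0176. In ES2 it read 26.2, 28.8 and 27.1 FPKM in siC and 19.6, 19.9 and 20.2 in siI1. NCAPD2 (chromosome 12, 6493356 to 6531955), a subunit of the same complex, read 81.5, 83.1 and 81.9 FPKM in siC and 82.97, 79 and 82.2 in siI1 in ES2 and 81.7, 81.96 and 77.9 FPKM in siC and 77.1, 81.8 and 78.04 in siI1 in MV3. The groups overlapped in both of these lines and in A549. For NCAPD2 the log2 fold change was -0.43 ± 0.071 in PANC1, -0.028 ± 0.036 in MV3, -0.014 ± 0.037 in ES2 and -0.042 ± 0.073 in A549 (SE), called only in PANC1 (adjusted p 0.00804). The sign of the small changes in ES2 and MV3 depends on the scaling, since they became 0.017 and 0.029 when libraries were rescaled to the same sum of reads.

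The log2 ratio of NCAPH to NCAPD2, chosen after the values were seen, ran from -1.76 to -1.71 in siC and -2.54 to -2.36 in siI1 in MV3, and fell without overlap in A549 and ES2 as well, by 0.45 and 0.43 between group means. In PANC1 it overlapped, -0.33 to -0.076 in siC and -0.59 to -0.23 in siI1. The ratio of NCAPG to SMC4 fell without overlap in ES2 and MV3 and overlapped in A549 and PANC1. SMC2 (chromosome 9, 104094260 to 104141419), 1 of the 2 ATPase arms of condensin, read 26.6 ± 1.24 FPKM in siC and 27.6 ± 3.05 in siI1 in A549 and 13.03 ± 1.28 FPKM in siC and 6.35 ± 0.446 in siI1 in PANC1 (SD of 3 libraries each). For SMC2 the log2 fold change was -0.98 ± 0.093 in PANC1, -0.60 ± 0.033 in MV3, -0.013 ± 0.10 in ES2 and 0.046 ± 0.089 in A549 (SE), called in MV3 and PANC1 (adjusted p 0.000152 and 0.0017). SMC4, the other arm, followed the same order, -0.70 in PANC1, -0.43 in MV3, -0.14 in ES2 and -0.077 in A549, and NCAPG was called in all but A549; both are named after their values were seen. MKI67 (chromosome 10, 128096659 to 128126423), Ki-67, which coats mitotic chromosomes and marks cycling cells, was called in all lines but ES2. There it read 30.6, 35.8 and 21.4 FPKM in siC and 21.7, 17.5 and 17.4 in siI1, with 1 siI1 library above the lowest siC library, a log2 fold change of -0.60 ± 0.20 (SE) and an adjusted p of 0.0751. By the study's own test MKI67 was lower in each of its lines, ES2 included. In A549, MV3 and PANC1 the log2 fold changes of MKI67 were -0.69 ± 0.14, -0.42 ± 0.074 and -0.87 ± 0.19 (SE).

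Of 10 genes of spindle assembly and cytokinesis, 2, 5, 9 and 10 were lower in A549, ES2, MV3 and PANC1, with medians of -0.17, -0.25, -0.36 and -0.64. Across all genes tested, 7.83%, 13%, 19.5% and 13.4% were lower. Among genes averaging 5 FPKM or more, 13.5% were lower in A549, so the A549 count is given as a value only. PRC1 (chromosome 15, 90966040 to 90995629), which bundles the microtubules of the central spindle, was called in all 4 lines. In A549 PRC1 read 46.3, 49.3 and 43.6 FPKM in siC and 31.7, 31.9 and 30.1 in siI1. In ES2 PRC1 read 23.4, 25.3 and 24.5 FPKM in siC and 19.9, 19.5 and 19.1 in siI1. The groups did not overlap, nor did they in MV3 and PANC1. For PRC1 the log2 fold change was -0.85 ± 0.085 in PANC1, -0.53 ± 0.03 in MV3, -0.32 ± 0.047 in ES2 and -0.56 ± 0.061 in A549 (SE), with adjusted p of 0.00193, 0.000166, 0.00509 and 0.00338. TPX2 (chromosome 20, 31739271 to 31801805), the activator of AURKA on spindle microtubules, was also called in all 4, at -0.66 ± 0.084 in PANC1, -0.50 ± 0.034 in MV3, -0.35 ± 0.058 in ES2 and -0.37 ± 0.073 in A549 (SE).

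ANLN (chromosome 7, 36389821 to 36453791), anillin, the scaffold of the contractile ring, ran the other way in A549. In A549 ANLN read 42.8, 43.97 and 40.4 FPKM in siC and 48.7, 47.1 and 50.7 in siI1. All 3 siI1 libraries lay above siC, a log2 fold change of 0.20 ± 0.054 (SE), with an adjusted p of 0.0575, short of the threshold. It passed the threshold with voom (0.20), with a filter of 2 FPKM (0.20) and with libraries rescaled to the same sum of reads (0.22). In PANC1 ANLN read 102, 98.2 and 105 FPKM in siC and 78.7, 77.1 and 75.5 in siI1. There the order of the groups was turned, with a log2 fold change of -0.40 ± 0.05 (SE, adjusted p 0.00335). DLGAP5 and ASPM, spindle genes named after their values were seen, also differed between ES2 and PANC1. DLGAP5, which stabilises kinetochore fibres, read 18.8, 15.3 and 20.2 FPKM in siC and 21.96, 22.5 and 21.8 in siI1 in ES2, all siI1 libraries being above siC but not called (adjusted p 0.089), and 22.3, 25.2 and 21.9 FPKM in siC and 14.2, 13.97 and 13.9 in siI1 in PANC1. ASPM, a protein of spindle poles, changed by -1.17 in PANC1, -0.25 in MV3, 0.055 in ES2 and -0.13 in A549, called in MV3 and PANC1. TACC3, HMMR and RACGAP1 were called in all but A549, and ECT2 and NUSAP1 in MV3 and PANC1.

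Of the transcription factors, FOXM1 was called lower in all 4 lines and MYBL2 in 2. FOXM1 (chromosome 12, 2857680 to 2877174), an activator of late cell cycle genes, was lower by a similar amount in each line. In A549 FOXM1 read 8.96, 9.03 and 12.6 FPKM in siC and 6.34, 6.87 and 6.34 in siI1. In ES2 FOXM1 read 19.99, 16.1 and 19.8 FPKM in siC and 14.3, 10.96 and 11.6 in siI1. The siI1 libraries lay below siC in both, although siC spread widely. In MV3 FOXM1 read 21.3, 22.7 and 20.98 FPKM in siC and 14, 15.6 and 14.99 in siI1. In PANC1 FOXM1 read 8.02, 8.63 and 7.15 FPKM in siC and 4.90, 4.92 and 5.43 in siI1. Again no library crossed over. For FOXM1 the log2 fold change was -0.59 ± 0.09 in PANC1, -0.53 ± 0.051 in MV3, -0.58 ± 0.13 in ES2 and -0.59 ± 0.14 in A549 (SE), with adjusted p of 0.00604, 0.000677, 0.0211 and 0.0425, and an adjusted p of 0.929 for a difference between lines. MYBL2 (chromosome 20, 43667019 to 43716495), B-Myb, the partner of MuvB at CHR promoters, was called in MV3 and PANC1 only. In A549 it read 36.02, 29.7 and 37.9 FPKM in siC and 28.5, 33.97 and 29.9 in siI1, with overlapping groups. For MYBL2 the log2 fold change was -0.31 ± 0.073 in PANC1, -0.60 ± 0.039 in MV3, -0.25 ± 0.092 in ES2 and -0.16 ± 0.11 in A549 (SE), with adjusted p of 0.0256, 0.000214, 0.101 and 0.421, and it differed between lines (adjusted p 0.000782).

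**Figure D3:**
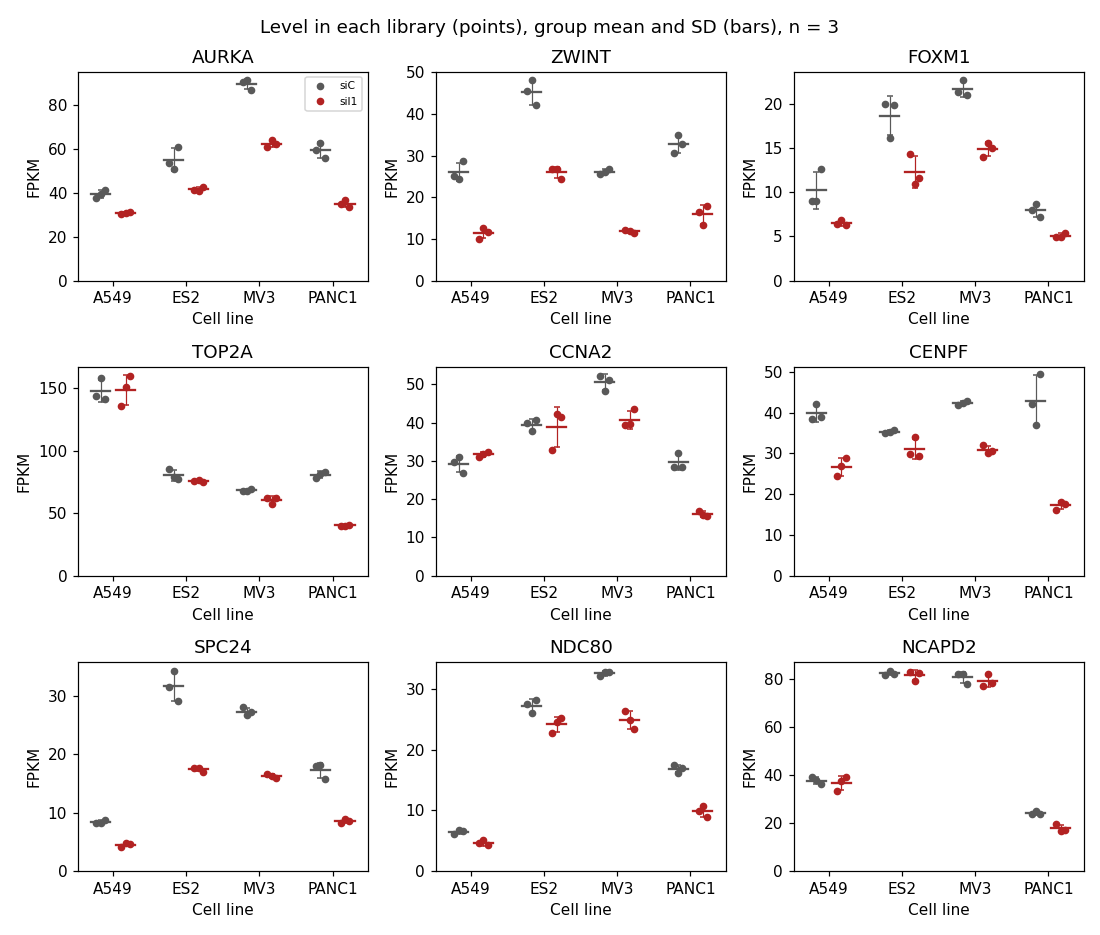
FPKM (y axis, from 0) of 9 genes in each library of the 4 cell lines (x axis), siC in grey and siI1 in red, with the group mean as a horizontal bar and the SD as an error bar (n = 3). AURKA, ZWINT, FOXM1 and SPC24 are lower in siI1 in all 4 lines without overlap, TOP2A and CCNA2 differ mainly in PANC1, and NCAPD2 is called lower only there.

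The response differed between lines for 41 of the 54 genes by Cochran's Q on the log2 fold changes of the 4 lines (adjusted p under 0.05), against 53.3% of the 12816 genes tested in all lines. The largest fall was in PANC1 for 36 genes, in MV3 for 8, in ES2 for 7 and in A549 for 3. The 3 smallest p belonged to TOP2A (adjusted p 5.16e-11), CCNA2 (8.30e-08) and SMC2 (2.92e-07), none of which was called in A549 or ES2, while each was lower in MV3 and lower by more in PANC1. Not every gene followed that order. UBE2C, AURKB, CCNB1, CDC20, PTTG1, NEK2 and BIRC5, chosen after their values were seen, had their largest fall in ES2, and ZWINT, INCENP and SPC25 in A549. The log2 ratio of CCNB1 to CCNA2, also chosen after the values were seen, fell between group means from 1.31 to 0.62 in ES2, from 1.13 to 0.93 in A549 and from 0.80 to 0.64 in MV3, and rose from 1.54 to 1.84 in PANC1. The siC and siI1 libraries did not overlap in this ratio in any line. The ratio of CCNB1 to CCNB2 fell without overlap in ES2 and MV3 and overlapped in A549 and PANC1. Such ratios were taken only for a few picked pairs, so no share over other gene pairs is known. The levels in siC also differed by line, with AURKA at 39.4 FPKM in A549 and 89.7 in MV3, but tables were normalised separately, so levels were not tested between lines.

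Other genes of mitosis, in 6 further lists, included some that were called higher. Of 16 other regulators of mitotic entry, 3, 5, 12 and 8 were lower and 4, 2, 2 and 2 higher in A549, ES2, MV3 and PANC1. Over all genes tested, 7.83%, 13%, 19.5% and 13.4% were lower and 5.93%, 10.5%, 16.3% and 11.3% higher, so that the higher calls of these regulators in ES2, MV3 and PANC1, 2 of 16 each, are near the background and are given as values only. Both regulators lower in all 4 lines are known to act on histone H3 or on the phosphatase that opposes CDK1. ARPP19, which once phosphorylated inhibits that phosphatase, changed by -0.73 ± 0.059 in PANC1, -0.70 ± 0.044 in MV3, -0.50 ± 0.064 in ES2 and -1.07 ± 0.073 in A549 (SE). GSG2, haspin, which marks histone H3 at centromeres, changed by -0.50 in PANC1, -0.81 in MV3, -0.56 in ES2 and -0.44 in A549. NEK6, a kinase upstream of spindle motors, was instead higher in all 4 lines, at 0.51 ± 0.07 in PANC1, 0.30 ± 0.039 in MV3, 0.87 ± 0.053 in ES2 and 0.38 ± 0.073 in A549 (SE). In ES2 it averaged 12.3 ± 0.573 FPKM in siC and 22.96 ± 0.682 in siI1 (SD of 3 libraries each). WEE1 in PANC1, NEK7, CKS2 and ENSA in A549, and NEK9 in ES2 and MV3 were also higher.

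Of 30 other kinetochore and centromere genes, 5, 6, 22 and 18 were lower in A549, ES2, MV3 and PANC1, that is 16.7%, 20%, 73.3% and 60%. Over all genes tested the shares lower were 7.83%, 13%, 19.5% and 13.4%. Among genes averaging 5 FPKM or more they were 13.5%, 22.6%, 33.4% and 20.8%. Against these, the share of the 30 genes was near in A549 and lower in ES2. CENPO (-0.80 in PANC1, -0.71 in MV3, -0.39 in ES2 and -0.92 in A549), CENPW (-0.61 in PANC1, -0.52 in MV3, -0.66 in ES2 and -0.28 in A549) and SGO1 (-1.04 in PANC1, -0.65 in MV3, -0.37 in ES2 and -0.56 in A549) were lower in all 4. CENPO and CENPW are subunits of the inner kinetochore, and SGO1, shugoshin, protects cohesin at centromeres. Called higher were 2, 2, 1 and 0 of the 30, against 5.93%, 10.5%, 16.3% and 11.3% of all genes tested. These calls are near or below that background and are given as values only: CENPH in A549 (0.53) and ES2 (0.49), CENPQ in A549, SPDL1 in ES2 and CENPT in MV3. Of 22 other spindle and cytokinesis genes, 21 were tested in each line and 5, 8, 19 and 15 were lower, that is 23.8%, 38.1%, 90.5% and 71.4%. CIT, citron kinase of the midbody, changed by -0.94 in PANC1, -0.40 in MV3, -0.38 in ES2 and -0.53 in A549, and TROAP, a spindle protein, by -0.64 in PANC1, -0.46 in MV3, -0.43 in ES2 and -0.76 in A549, both called in all 4 lines. HAUS6, a subunit of augmin, was higher in A549, the 1 higher call of this list in any line.

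The lists of cohesin and of the anaphase-promoting complex held genes called lower and genes called higher. Of 15 genes of condensin II and cohesin, 4, 0, 7 and 9 were lower, with medians of -0.13, -0.026, -0.15 and -0.39 in A549, ES2, MV3 and PANC1, and none was lower in all 4 lines. Those are 26.7%, 0%, 46.7% and 60%, against 7.83%, 13%, 19.5% and 13.4% of all genes tested. Called higher were 1, 2, 3 and 0 of these 15, and 1, 0, 3 and 2 of the 17 genes of the next list. Over all genes tested, 5.93%, 10.5%, 16.3% and 11.3% were higher. The higher calls of both lists are thus near or below the background and are given as values only. STAG2, a cohesin subunit, was higher in A549, ES2 and MV3, at 0.60, 0.33 and 0.19, as were ESCO1 in ES2 and MV3 and NIPBL in MV3, which acetylate and load cohesin. Of 17 genes of the anaphase-promoting complex and its regulators, 1, 2, 6 and 5 were lower, and the medians were -0.0054, 0.043, -0.013 and 0.025. The shares lower were 5.88% in A549 and 11.8% in ES2, below the 7.83% and 13% of all genes, and 35.3% in MV3 and 29.4% in PANC1, above the 19.5% and 13.4% of all genes, with no test of these differences. Among genes averaging 5 FPKM or more, 33.4% in MV3 and 20.8% in PANC1 were lower, so the MV3 share is near that level. ANAPC13, a small subunit, was higher in A549, MV3 and PANC1, at 0.52, 0.35 and 0.44. ANAPC2, ANAPC15 and CDC26 were each higher in 1 line. Of the 5 genes of the MuvB core, 1, 1, 4 and 3 were lower (20%, 20%, 80% and 60%) and 0 higher, 0 of them lower in all 4 lines.

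**Figure D4:**
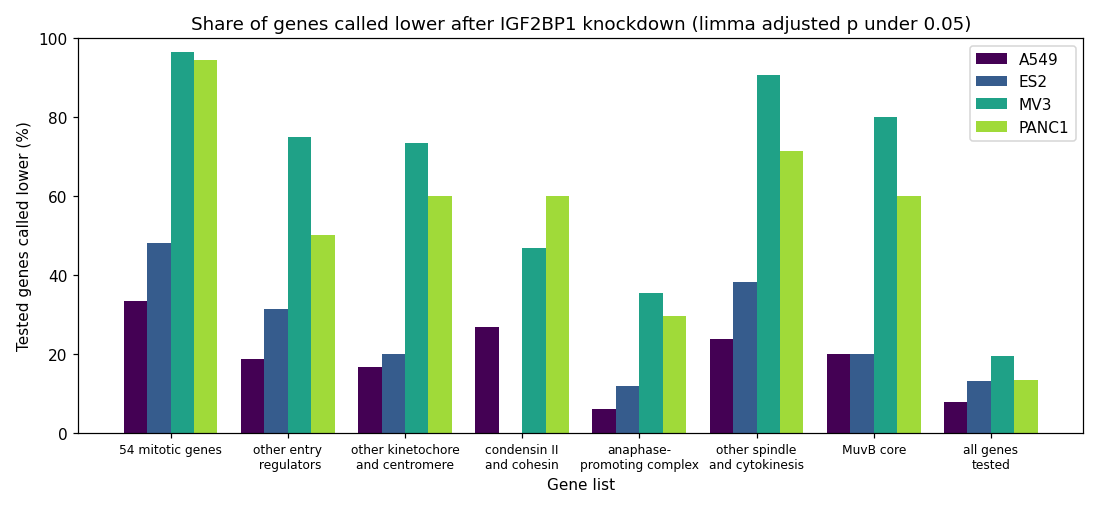
Share of tested genes called lower (y axis, %, limma adjusted p under 0.05) in the 54 mitotic genes, in 6 further lists of mitotic genes and in all genes tested (x axis), with 1 bar per cell line. The 54 genes reach 96.3% in MV3 and 94.4% in PANC1, the anaphase-promoting complex 35.3% and 29.4%, and all genes tested 19.5% and 13.4%.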

How the data were processed

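As given in the labels and the study's methods, the authors trimmed reads with cutadapt 1.14, aligned them to hg38 with HISAT2 2.1.0 and SAMtools 1.5, and counted reads per gene with featureCounts 1.5.3 on an Ensembl annotation. Whether strand was used in counting is not given in the sources used here. The authors then used edgeR 3.30.3 with TMM scaling, a factor per library that sets most genes to no change. The deposited tables, 1 per line, hold FPKM for each library. The unit was deduced from the values: multiplied by the listed gene length, 100% were whole multiples of a step per library (tolerance 0.001 reads), which also gave the reads. The authors' columns of log2 fold change, p-value and FDR hold their own comparison and were not used.

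Each line was tested on its own with limma 3.58.1 in R 4.3.3 (lmFit, eBayes with trend, two-sided) on log2(FPKM + 0.5), a scale that understates changes of low genes, for genes averaging 0.5 FPKM or more across the 6 libraries of the line. P-values were adjusted by Benjamini-Hochberg over all 18411 (A549), 16920 (ES2), 16380 (MV3) or 15846 (PANC1) genes tested, at a threshold of 0.05. Differences between lines used Cochran's Q with an F reference, adjusted over 12816 genes. Tests were tried on simulated data. Replicates were separate libraries, since the chi-square per gene between them was 1.54 to 15.1. Same-numbered siC and siI1 libraries did not deviate together (correlations of -0.056 to 0.071), and the main fits used no pairing. With 3 libraries a group these correlations cannot exclude one.

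The members and lists were chosen with earlier results of these data known. Named with values were AURKA, PLK1, CDK1 and MKI67, the 2 lowest and the highest mean log2 fold change of each role, members called higher, the 3 smallest p between lines, and genes of the other lists lower in all 4 lines or higher in any. Further members were picked for mention with their values in view. Alternatives were other pseudocounts, filters, scalings, voom on recovered reads, a replicate block, a fold change minimum and leaving out each library. Promoters came from RefSeq and coordinates from GENCODE release 44. Motifs and figures used Python 3.11.15 with numpy 2.4.6, pandas 2.3.3 and matplotlib 3.10.9.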

Additional observations from a re-analysis of the deposited data

Results flagged for a closer look

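The response to IGF2BP1 knockdown differed between the 4 cell lines for 41 of the 54 genes, by Cochran's Q on the 4 fold changes of a gene, Benjamini-Hochberg adjusted across the 12816 genes that were tested in each line. The background is 53.3% of those genes. Among genes of mitotic entry, the adjusted p of the difference was 8.30e-08 for CCNA2, 8.07e-06 for PLK4, 5.32e-05 for CCNB1, 0.000288 for CDC25C, 0.0012 for AURKA, 0.00127 for CCNB2, 0.00462 for AURKB and 0.0184 for NEK2. Among genes of the spindle checkpoint and anaphase, the adjusted p of the difference was 7.56e-07 for MAD2L1, 6.78e-06 for BUB1B, 0.0036 for UBE2C, 0.00429 for BUB1, 0.012 for TTK, 0.0124 for CDC20, 0.0293 for ESPL1 and 0.0381 for CDCA5. Among genes of the kinetochore and passenger complex, the adjusted p of the difference was 1.33e-06 for CENPF, 2.12e-05 for KNTC1, 4.54e-05 for CENPK, 0.000196 for NDC80, 0.000216 for CENPE, 0.000499 for CENPM, 0.0053 for ZWINT, 0.0099 for NUF2 and 0.0146 for CDCA8. Among genes of condensin and the mitotic chromosome, the adjusted p of the difference was 5.16e-11 for TOP2A, 2.92e-07 for SMC2, 1.61e-05 for SMC4, 1.82e-05 for NCAPG, 0.000771 for NCAPD2 and 0.0127 for NCAPH. Among genes of spindle assembly and cytokinesis, the adjusted p of the difference was 7.04e-07 for ASPM, 1.36e-06 for ANLN, 1.96e-06 for DLGAP5, 1.35e-05 for NUSAP1, 0.000158 for ECT2, 0.00032 for PRC1, 0.000393 for HMMR, 0.00234 for RACGAP1 and 0.0323 for TPX2. Among genes of transcription control, the adjusted p of the difference was 0.000782 for MYBL2.

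The 3 genes with the smallest p, TOP2A, CCNA2 and SMC2, were at or near the level of siC in A549 and ES2 and lowest in PANC1. Others of the flagged genes did not follow that order. MAD2L1 stood lowest in MV3, and CENPF was called lower in A549 as well. TOP2A stood at 49.9% of siC in PANC1, 88.7% in MV3, 94.4% in ES2 and 101% in A549. PANC1 was harvested later than the other lines and its siI1 libraries hold more RN7SL2. It also kept the least IGF2BP1, 24.9% of siC, while A549 kept the most, 39.4%. The line, the harvest time, the depth of knockdown and the share of RN7SL2 thus cannot be told apart.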

How the results depend on the processing

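The count of members lower changed by over 1.5 times in these cases. Requiring also a log2 fall of 0.5 or more, it was 25 in MV3, 14 in ES2, 7 in A549 and 3 in all 4 lines. With a replicate block it was 7 in A549 and 4 in all 4 lines, against 25 in ES2, 52 in MV3 and 48 in PANC1. No pairing by replicate number was seen, but 3 libraries a group cannot exclude one. With voom on recovered reads, 21 were lower in all 4 lines. Leaving out 1 library gave 8 to 13 in A549, 23 to 28 in ES2, 50 to 52 in MV3, 44 to 50 in PANC1, 6 to 12 in all 4 lines and 39 to 45 for a difference between lines. The cause of these moves was not tested, except that such fits have fewer libraries.

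The median log2 fold change of the members moved by more than 1 SD between libraries under other scalings and, in ES2, without siC replicate 3 (-0.29). Rescaling to the same sum of reads gave -0.29 in ES2, -0.42 in MV3 and -0.79 in PANC1. Rescaling to the same sum of FPKM, chosen after seeing the data, gave -0.26 in ES2 and -1.36 in PANC1. Rescaling without small non-coding RNAs, also chosen after seeing the data, gave -0.29 in ES2 and -0.41 in MV3. Leaving out 1 library gave -0.27 to -0.22 in A549, -0.32 to -0.29 in ES2, -0.49 to -0.47 in MV3 and -0.67 to -0.61 in PANC1, so the ES2 values from both rescalings to the same sum of reads lie within the range from leaving out 1 library. TMM factors computed again gave the deposited scaling.

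Changes of sign concerned values that were not called. In A549, TOP2A was at -0.028 with the same sum of FPKM, and leaving out 1 library gave -0.046 to 0.072 for TOP2A, -0.15 to 0.033 for CENPK, -0.089 to 0.026 for NCAPD2, -0.00075 to 0.25 for NEK2 and -0.037 to 0.12 for SMC2. In ES2, the same sum of reads gave 0.0017 for CCNA2, 0.017 for SMC2 and 0.017 for NCAPD2, the same sum of FPKM gave 0.042, 0.056 and 0.057, and the scaling without small non-coding RNAs 0.0044, 0.019 and 0.020. Leaving out 1 ES2 library gave -0.094 to 0.087 for CCNA2, -0.088 to 0.089 for SMC2 and -0.028 to 0.0074 for NCAPD2. In MV3, NCAPD2 was at 0.029 with the same sum of reads and 0.048 without small non-coding RNAs. Among the other repeats for named members, 1284 kept their direction and their side of the threshold, 82 were no longer called and 17 were newly called.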
